A study of Mus musculus with 12 samples.

Results

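Leukocyte adhesion molecules are the surface proteins by which blood leukocytes slow, stick and cross the vessel wall. The members described here are 10 genes, picked by gene symbol from the 22013 entries of an expression table of mouse aorta. They comprise 5 adhesion molecules of endothelial cells (Vcam1, Icam1, Icam2, Sele and Selp) and 5 leukocyte ligands and integrin chains that bind such molecules (Selplg, Itgb2, Itgam, Itgal and Itga4). All 10 symbols were found once in the table, and 9 passed the filter on low counts; Sele did not.

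The series sampled aortic endothelial cells, as labelled, from mice with a global knockout of Glra2 (KO), the glycine receptor α2 subunit gene, and from wild-type mice (WT). All animals of both genotypes received angiotensin II, a peptide that raises blood pressure and inflames arteries, by infusion. The 4 groups of 3 RNA-seq libraries are KO glycine (libraries 4 to 6), KO saline (1 to 3), WT glycine (4 to 6) and WT saline (1 to 3), where saline or glycine was injected intraperitoneally. Glycine was given at 800 mg/kg per day by the labels, except that KO glycine 5 carries 80 in its label. Strain, sex, age, time and the isolation of the cells are not given in the labels used here, nor is whether the libraries of a group came from separate animals, so p-values measure only the spread between libraries, which may be technical.

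In the adhesion cascade, selectins on activated endothelium (P-selectin from Selp, E-selectin from Sele) catch rolling leukocytes through PSGL-1, the product of Selplg. Chemokine signals then switch on leukocyte integrins: LFA-1 (Itgal with Itgb2) and Mac-1 (Itgam with Itgb2) bind ICAM-1, LFA-1 also binds ICAM-2, and VLA-4 (Itga4 with Itgb1) binds VCAM-1. In arteries, inflammatory cytokines acting through NF-kB induce Vcam1, Icam1 and Sele in endothelial cells, whereas Icam2 is expressed without induction; the integrin chains and Selplg are carried mainly by leukocytes.

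The promoter windows of 3 members are printed to show where letters like the sites of NF-kB and PU.1 lie in a pair of cytokine-inducible endothelial genes and a myeloid integrin gene; they were chosen after the matches were seen. RefSeq (build GRCm38.p6) gave windows of 300 bases, from 250 before to 50 after the gene start, for 5 of the 10 members (Sele, Selp, Itga4, Itgam and Icam1). Capitals in the Icam1 and Sele windows mark GGNNNTTCC, a pattern like the site bound by NF-kB, and capitals in the Itgam window mark GAGGAA, a pattern like that of the myeloid factor PU.1; each was searched on both strands. The windows are chr9:21015690-21015989 (Icam1), chr1:164047984-164048283 (Sele) and chr7:128062390-128062689 (Itgam), all on the plus strand.
Icam1: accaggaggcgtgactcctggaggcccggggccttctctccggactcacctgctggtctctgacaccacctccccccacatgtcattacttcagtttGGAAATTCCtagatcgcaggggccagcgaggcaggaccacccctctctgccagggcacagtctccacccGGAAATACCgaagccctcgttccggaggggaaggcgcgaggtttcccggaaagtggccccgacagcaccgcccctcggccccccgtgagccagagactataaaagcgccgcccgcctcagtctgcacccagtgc
Sele: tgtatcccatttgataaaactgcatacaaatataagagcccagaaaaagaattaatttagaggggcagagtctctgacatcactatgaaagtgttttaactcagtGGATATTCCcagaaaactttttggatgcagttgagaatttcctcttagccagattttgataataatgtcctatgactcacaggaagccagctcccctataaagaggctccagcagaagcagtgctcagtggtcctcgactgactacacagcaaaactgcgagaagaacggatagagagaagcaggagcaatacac
Itgam: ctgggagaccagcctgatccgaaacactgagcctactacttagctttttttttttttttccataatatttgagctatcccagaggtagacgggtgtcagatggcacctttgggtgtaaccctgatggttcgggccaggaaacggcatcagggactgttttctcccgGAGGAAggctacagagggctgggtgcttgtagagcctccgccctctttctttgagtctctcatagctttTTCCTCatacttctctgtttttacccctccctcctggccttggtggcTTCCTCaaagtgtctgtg
GGNNNTTCC was found in 18.5% of 32851 RefSeq windows of the same length, and GAGGAA in 28.3%. The NF-kB-like letters occurred at 2 places in Icam1 and at 1 place each in Sele and Selp, and at none in Itgam and Itga4. The PU.1-like letters occurred at 3 places in Itgam and at 1 place in Sele (left in lower case above), and at none in Icam1, Selp and Itga4. Itga4, also a leukocyte integrin gene, thus held neither pattern. A match is a string of letters, not a measured site, and these libraries hold no binding data.

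The libraries held estimated counts of 14.5 to 24.3 M each. Mitochondrially encoded genes took 26.9 to 36.2% of them in KO glycine, 34.4 to 50.4% in KO saline, 30.6 to 38.5% in WT glycine and 50 to 64.7% in WT saline. With those genes left out of the table, edgeR called the same members in each comparison as with them. That refit cannot show why the mitochondrial share differed between groups, and what lies behind it was not tested. Glra2 had 0 counts in every library of either genotype, so the genotype labels could not be checked by their target. All 14 endothelial markers searched (Pecam1, Cdh5, Kdr and others) were present in each group, but their summed level was 348 to 532 CPM (a count relative to its TMM-scaled library size) in KO glycine, 326 to 514 in KO saline, 399.6 to 547 in WT glycine and 632 to 1002 in WT saline. Macrophage markers (10 genes, such as Adgre1, Csf1r and Lyz2) summed to 9040 to 10374 CPM in KO glycine, 14704 to 19565 in KO saline, 8626 to 9124 in WT glycine and 3771 to 5823 in WT saline, above the endothelial sum in every library. In bulk samples such as these, fewer cells of a type and less RNA per cell cannot be told apart.

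**Figure D1:**
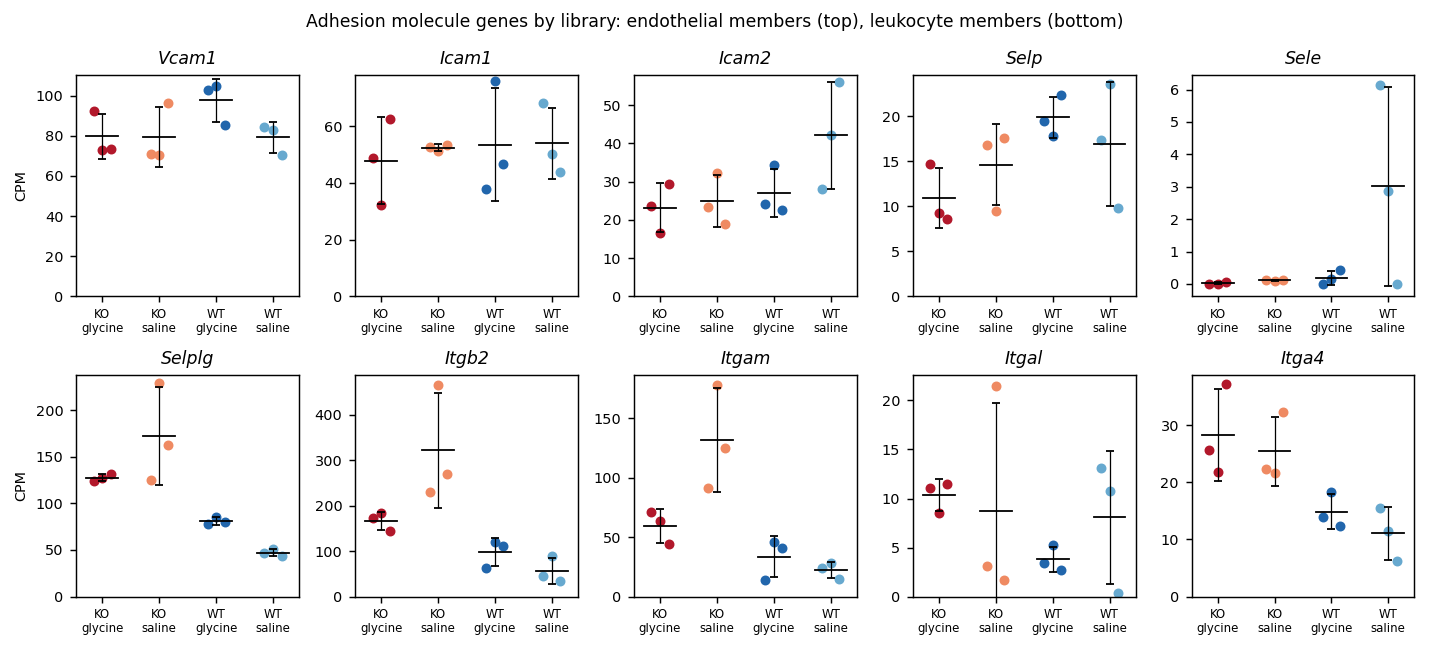
CPM (vertical axis, linear) of each of the 10 genes in the 12 libraries; points are libraries, bars the mean and SD of 3. Itgb2, Itgam, Selplg and Itga4 stood higher in every KO saline library than in any WT saline library. Icam1 lay at like levels in all 4 groups. Vcam1 did so too, apart from WT glycine, whose libraries all lay above those of WT saline. Sele was seen mainly in WT saline 1 and 2.

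How abundant each gene was depends on the unit, so levels between genes are compared per length, in FPKM as the authors deposited it. In KO saline, Itgb2 (108 ± 49.0 FPKM) and Selplg (98.4 ± 39.9) were the most abundant, followed by Itgam (27.8 ± 11.3), Vcam1 (24.4 ± 7.73), Icam2 (20.2 ± 6.27) and Icam1 (19.9 ± 2.56) (SD, n = 3 each). In WT saline the order of mean FPKM was Icam2 (28.1 ± 10.9), Selplg (22.0 ± 3.16), Vcam1 (21.1 ± 5.38), Icam1 (17.5 ± 6.28) and Itgb2 (14.8 ± 4.47), with ranges that overlapped from each gene to the next. In KO saline the libraries of Itgb2 and Selplg overlapped each other, and all of them lay above those of the other members. Leukocyte genes headed the order of means in KO saline, and an endothelial gene headed it in WT saline. Selp, Itgal, Itga4 and Sele averaged below 7 FPKM in all 4 groups.

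Among the endothelial members, Vcam1 passed the threshold in no comparison. Vcam1 had 92.5, 73.1 and 73.5 CPM in KO glycine, 70.9, 70.6 and 96.6 in KO saline, 103, 105 and 85.5 in WT glycine, and 84.5, 82.8 and 70.4 in WT saline. WT glycine held the highest pair of values, and its lowest library (85.5) lay just above the highest of WT saline (84.5). All other pairs of groups overlapped. Its log2 fold change was 0.00 ± 0.18 (SE) in KO saline against WT saline (95% interval −0.38 to 0.39) and 0.30 ± 0.18 in WT glycine against WT saline (adjusted p = 0.574, edgeR quasi-likelihood test with Benjamini-Hochberg adjustment).

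Icam1, the inducible ligand of LFA-1 and Mac-1, had 48.8, 32.2 and 62.7 CPM in KO glycine, 52.8, 51.1 and 53.6 in KO saline, 37.8, 76.1 and 46.8 in WT glycine, and 68.1, 50.3 and 43.9 in WT saline. The KO saline libraries lay close together within the range of the other groups. Icam1 differed between KO saline and WT saline by −0.04 ± 0.28 on the log2 scale (95% interval −0.64 to 0.56). In GENCODE vM21 an antisense gene overlaps Icam1, as others do Vcam1 and Selp, and without stated strand-specific counting their reads cannot be told apart.

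Icam2, the constitutive ligand of LFA-1, had 23.6, 16.5 and 29.4 CPM in KO glycine, 23.5, 32.3 and 18.8 in KO saline, 24.1, 34.2 and 22.5 in WT glycine, and 28.1, 42.1 and 56.0 in WT saline. WT saline held the 2 highest libraries, and its lowest library lay within the range of the other groups. The log2 fold change was −0.76 ± 0.31 in KO saline against WT saline (adjusted p = 0.152, edgeR) and −0.64 ± 0.31 in WT glycine against WT saline (adjusted p = 0.450, edgeR). Pecam1, a general endothelial marker, differed by −0.62 ± 0.21 in KO saline against WT saline (adjusted p = 0.0756, edgeR), and 3 of 14 endothelial markers fell in that comparison.

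Selp, which encodes the P-selectin stored in endothelial granules and in platelets, had 14.7, 9.29 and 8.61 CPM in KO glycine, 16.8, 9.44 and 17.6 in KO saline, 19.5, 17.8 and 22.4 in WT glycine, and 17.4, 23.6 and 9.85 in WT saline. All KO glycine libraries lay below all WT glycine libraries. The log2 fold change between these groups was −0.87 ± 0.37, which missed the threshold (adjusted p = 0.304, edgeR). Platelet markers (5 genes) summed to 95.6 to 149.9 CPM in KO glycine and 157 to 199 in WT glycine, mostly from Pf4 (means 95.7 and 146). In the same order of groups, Ppbp averaged 14.6 and 26.5 CPM and Gp9 0.456 and 1.03. Itga2b averaged 5.43 and 5.55 CPM, and Gp1bb 2.09 and 1.32, so the markers did not move together. The part of platelets in the Selp difference was not tested.

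Sele, the cytokine-induced E-selectin gene, had at most 8 counts in any library outside WT saline. Its estimated counts were 0, 0 and 1 in KO glycine, 2, 2 and 3 in KO saline, 0, 3 and 8 in WT glycine, and 97, 31 and 0 in WT saline. The signal rested on WT saline 1 and 2, and WT saline 3 had none; 3 counts equal 0.118 to 0.279 CPM in these libraries. In a fit without the filter on low counts the fitted log2 fold change of Sele was −4.57 in KO saline against WT saline (adjusted p = 0.225) and −3.93 in WT glycine against WT saline (adjusted p = 0.520, edgeR).

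Among the leukocyte members, Selplg (PSGL-1) had 124, 127 and 132 CPM in KO glycine, 126, 229 and 162 in KO saline, 77.7, 85.4 and 79.5 in WT glycine, and 47.1, 51.1 and 43.5 in WT saline. Every KO library lay above every WT library, and within WT every glycine library lay above every saline library; the KO groups overlapped. In KO saline against WT saline Selplg rose by 1.87 ± 0.20 on the log2 scale, a 3.65-fold difference (adjusted p = 3.17e-05, edgeR).

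Itgb2, the β2 chain shared by LFA-1 and Mac-1, had 172, 183 and 145 CPM in KO glycine, 230.2, 466 and 269.6 in KO saline, 62.2, 119 and 111 in WT glycine, and 45.2, 89.7 and 33.8 in WT saline. All KO saline libraries lay above all KO glycine libraries, which lay above all WT libraries; the WT groups overlapped. Itgb2 was 5.74-fold higher in KO saline than in WT saline (log2 fold change 2.52 ± 0.36, adjusted p = 0.000327, edgeR).

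Itgam, the αM chain of Mac-1 carried by neutrophils, monocytes and macrophages, had 71.1, 63.2 and 43.9 CPM in KO glycine, 91.7, 178 and 125 in KO saline, 13.8, 45.7 and 41.1 in WT glycine, and 23.7, 28.6 and 14.8 in WT saline. The KO saline libraries again lay above all others, and KO glycine overlapped WT glycine only at its lowest library. Itgam rose 5.90-fold in KO saline against WT saline (log2 fold change 2.56 ± 0.40, adjusted p = 0.000665, edgeR). In the GENCODE vM21 annotation a protein-coding gene, Gm49368, overlaps Itgam on the same strand, and Itgam had fractional counts in 7 libraries, so some of its reads may be shared.

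Itga4, the α4 chain of VLA-4, had 25.7, 21.9 and 37.3 CPM in KO glycine, 22.3, 21.5 and 32.3 in KO saline, 14.0, 18.3 and 12.3 in WT glycine, and 15.5, 11.4 and 6.28 in WT saline. Every KO library lay above every WT library. The rise in KO saline against WT saline was 1.20 ± 0.35 on the log2 scale (adjusted p = 0.0383, edgeR), and it lost its call when WT saline 2 or 3 or KO saline 1, 2 or 3 was left out, with adjusted p of at most 0.165. It was also lost in limma on FPKM (adjusted p = 0.101 and 0.0896 with pseudocounts 1 and 0.1) and in a fit of the compared groups alone (adjusted p = 0.0697, edgeR). Cerkl overlaps Itga4 on the opposite strand, and since strand-specific counting is not stated, their reads cannot be told apart.

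Itgal, the αL chain of LFA-1, varied widely within the saline groups. Its CPM was 11.1, 8.51 and 11.5 in KO glycine, 3.17, 21.4 and 1.69 in KO saline, 3.39, 5.23 and 2.74 in WT glycine, and 13.1, 10.8 and 0.369 in WT saline. KO saline and WT saline each spanned the ranges of KO glycine and WT glycine, and the log2 fold change of 0.12 ± 0.94 between them left differences from −1.90 to 2.14 within its 95% interval. Without KO saline 2 the value was −1.74. T cell markers (8 genes) summed to 179.8 to 208 CPM in KO glycine, 22.9 to 38.7 in KO saline, 28.2 to 54.1 in WT glycine and 15.1 to 33.3 in WT saline; their part in the levels of Itgal and Itga4 was not tested.

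**Figure D2:**
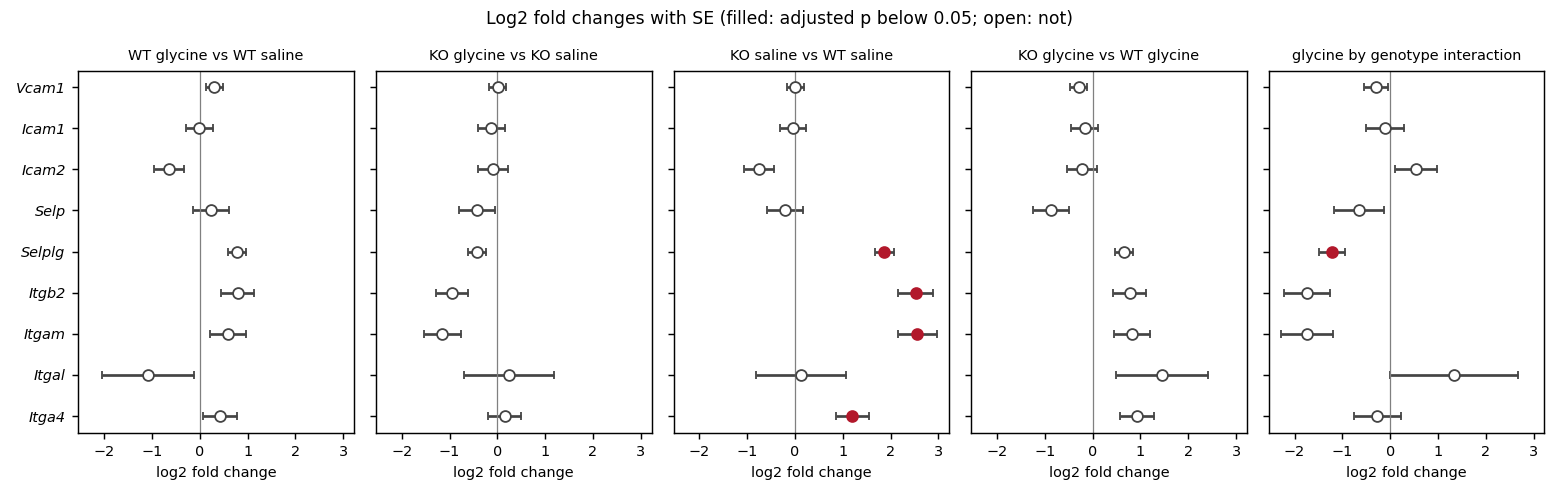
Log2 fold change (horizontal axis) with SE for the 9 members tested, in 5 comparisons; filled points passed adjusted p below 0.05. Selplg, Itgb2, Itgam and Itga4 are filled in KO saline against WT saline, Selplg alone in the interaction, and none in the other 3.

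Read across comparisons, the knockout effect under saline was the main contrast. Under angiotensin II and saline, 4 of the 9 members tested rose in KO against WT, where 6.04% of all 13928 genes tested rose; no member fell in edgeR, DESeq2 or limma on FPKM, where 5.26% of genes fell in edgeR. All 4 were leukocyte members; of the 4 endothelial members tested, Icam2 alone was lower at an unadjusted p below 0.05 in edgeR, a mark that 23.5% of all genes met in either direction. Sele, outside the test, met it in the fit with no filter. The median log2 fold change was 1.87 over the 5 leukocyte members and −0.13 over the 4 endothelial members tested, against −0.02 over all genes.

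The marker lists moved in the same comparison. All 5 pan-leukocyte markers, all 10 macrophage markers and 6 of 8 neutrophil markers rose in KO saline against WT saline, while all 6 fibroblast markers and 3 of 6 smooth muscle markers fell. Pan-leukocyte markers summed to 1547 to 1763 CPM in KO saline and 524 to 657 in WT saline, and neutrophil markers to 519 to 684 in KO saline and 101 to 272 in WT saline; fibroblast markers summed to 5527 to 7373 CPM in KO saline and 13440 to 17940 in WT saline. No marker was at 0 throughout a group except Camp, a neutrophil granule gene, in WT saline. The part of these shifts in the members' rises was not tested.

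**Figure D3:**
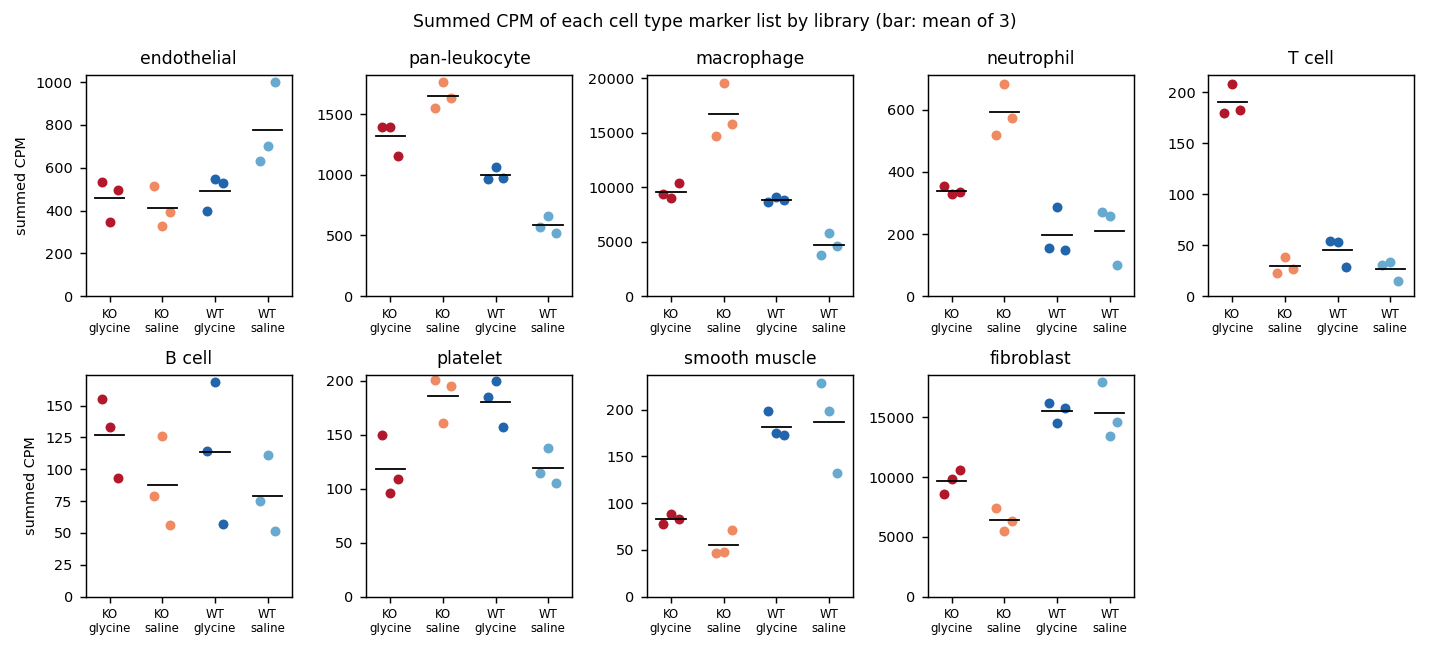
Summed CPM (vertical axis, linear) of 9 cell type marker lists in the 12 libraries; points are libraries, bars the mean of 3. Macrophage, pan-leukocyte and neutrophil sums were highest in KO saline, fibroblast and smooth muscle sums were lowest there, and the T cell sum was highest in KO glycine.

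To set the leukocyte members against leukocyte RNA in the same library, their counts were divided by those of Ptprc (CD45, carried by all leukocytes). Ptprc itself rose by 1.45 ± 0.21 on the log2 scale in KO saline against WT saline (adjusted p = 0.000348, edgeR), a smaller fitted rise than those of Itgb2, Itgam and Selplg, though the difference was not tested. Itgb2 per Ptprc was 0.645 ± 0.198 in KO saline and 0.302 ± 0.107 in WT saline (SD, n = 3 each), with 0.393 ± 0.0720 in KO glycine and 0.330 ± 0.137 in WT glycine. The lowest KO saline library (0.480) lay above the highest WT saline library (0.425).

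Itgam per Ptprc was 0.265 ± 0.0705 in KO saline and 0.122 ± 0.0165 in WT saline, again without overlap, and 0.136 ± 0.00444 in KO glycine and 0.115 ± 0.0666 in WT glycine. Selplg per Ptprc was 0.348 in KO saline and 0.267 in WT saline on average, and Itga4 per Ptprc was 0.0524 in KO saline and 0.0605 in WT saline; for both the libraries overlapped. Relative to Ptprc, then, the β2 and αM chains were higher in KO saline without overlap, and Selplg and Itga4 overlapped. Per macrophage gene the picture depended on the gene chosen. Itgb2 per Adgre1 ran from 0.694 to 1.19 in KO saline and from 0.310 to 0.495 in WT saline, without overlap. Itgb2 per Csf1r ran from 0.553 to 0.954 in KO saline and from 0.218 to 0.627 in WT saline, and per Lyz2 from 0.0236 to 0.0317 in KO saline and from 0.0114 to 0.0244 in WT saline, both with overlap. Itgam per Itgb2 averaged 0.415 in KO saline and 0.427 in WT saline, so the chains of Mac-1 kept a like ratio to each other.

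Among the endothelial members, Vcam1 per Pecam1 ran from 0.842 to 0.953 in KO saline and from 0.437 to 0.738 in WT saline, without overlap. Icam1 per Pecam1 averaged 0.593 in KO saline and 0.414 in WT saline, with overlapping libraries. Icam2 per Pecam1 averaged 0.286 in KO saline and 0.302 in WT saline, and Selp per Pecam1 0.163 and 0.129. Both of these overlapped as well. These ratios carry the lower Pecam1 level of KO saline, 89.2 ± 10.6 CPM, against 137 ± 23.2 CPM in WT saline. The log2 fold change of Pecam1 was −0.62, where the median of the 14 endothelial markers was −0.90. Ratios to another endothelial marker could therefore differ. Macrophage and fibroblast marker sums lay above the endothelial sum in every library. These bulk libraries do not show which cells the reads of Vcam1, Icam1 or Pecam1 came from, so the ratios are not levels per endothelial cell. All ratios are descriptions with no test.

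**Figure D4:**
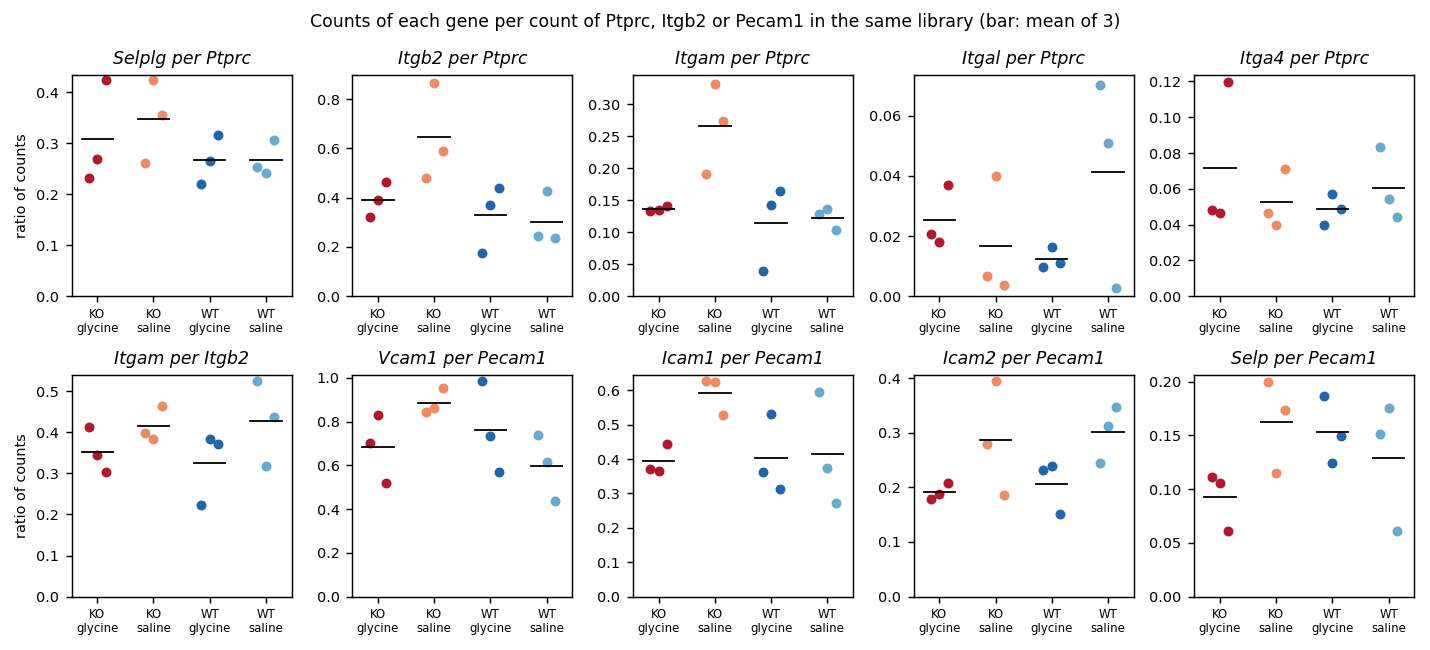
Ratio of estimated counts (vertical axis, linear) of each member to Ptprc, Itgb2 or Pecam1 in the same library; points are libraries, bars the mean of 3. Itgb2 and Itgam per Ptprc and Vcam1 per Pecam1 were higher in every KO saline library than in any WT saline library.

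Glycine in WT mice shifted no member past the threshold, where 1.39% of genes were called by edgeR. At an unadjusted p below 0.05 edgeR gave 2 of 9 members, Selplg and Itgb2, where 12% of all genes met that mark. Selplg differed by 0.78 ± 0.19 on the log2 scale (adjusted p = 0.0642) and Itgb2 by 0.80 ± 0.34 (adjusted p = 0.367), both higher in WT glycine than in WT saline. DESeq2 called 1 member (Selplg), and limma on FPKM called 2 (Selplg and Itgb2). Ptprc was higher by 0.78 ± 0.21 (adjusted p = 0.0894, edgeR). Selplg per Ptprc averaged 0.268 in WT glycine and 0.267 in WT saline, and Itgb2 per Ptprc 0.330 and 0.302. Macrophage markers rose alongside, 7 of 10 in number, and the part of these shifts in the members' values was not tested.

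In KO mice, glycine against saline gave lower fitted values for Itgam (−1.15 ± 0.38, adjusted p = 0.207), Itgb2 (−0.95 ± 0.34, adjusted p = 0.269) and Selplg (−0.43 ± 0.19, adjusted p = 0.398). None passed edgeR's threshold, where 1.13% of genes did, and these 3 met an unadjusted p below 0.05, as did 11.1% of genes. DESeq2 and limma on FPKM also called 0, and a fit of the KO groups alone called Itgam. Without KO glycine 5, the library labelled with the lower dose, edgeR again called 0 members. This comparison shares the KO saline libraries with the genotype comparison above, as the WT one shares WT saline. Of the macrophage markers 1 of 10 fell and 6 met an unadjusted p below 0.05 (list median −0.54); 4 of 8 neutrophil markers met that mark (median −0.81), and 3 of 8 T cell markers rose (median 2.53). Their part in the members' values was not tested.

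Between the genotypes under glycine, edgeR called 0 of 9 members, where 2.56% of genes were called. Selplg (0.66 ± 0.19, adjusted p = 0.0926), Itga4 (0.93 ± 0.35, adjusted p = 0.222), Itgb2 (0.78 ± 0.34, adjusted p = 0.324) and Itgam (0.82 ± 0.38, adjusted p = 0.356) were higher in KO glycine than in WT glycine, and Selp lower, at an unadjusted p below 0.05. These are 5 of 9 members, against 13.8% of genes. At the same mark stood 4 of 5 pan-leukocyte markers (list median 0.51) and 4 of 8 neutrophil markers (median 1.03), while 2 of 8 T cell markers rose (median 1.89), and their part was not tested. DESeq2 called 1 (Selplg) and limma on FPKM 0. The comparison shares no library with the one under saline.

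The interaction asks whether glycine's effect differed between KO and WT mice. Selplg was the 1 member called, with an interaction of −1.21 ± 0.27 on the log2 scale (adjusted p = 0.0444, edgeR); 1.12% of genes were called in either direction and 0.847% as lower. Glycine's fitted effect on Selplg was −0.43 in KO and 0.78 in WT. The call held when WT saline 2, WT glycine 4 or KO saline 1 was left out and was lost when any other library was, with adjusted p of at most 0.113. Itgb2 (−1.75 ± 0.49, adjusted p = 0.110) and Itgam (−1.74 ± 0.54, adjusted p = 0.156) had larger fitted interactions with larger errors. Ptprc had an interaction of −0.94 ± 0.29 (adjusted p = 0.155, edgeR), with fitted glycine effects of −0.16 in KO and 0.78 in WT. In the same test 7 of 10 macrophage markers were lower, and the part of these shifts in the value of Selplg was not tested.

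Other genes of the adhesion pathway were read from lists chosen with earlier results of these data known. Among 18 receptors of transmigration and junctions tested, 4 rose and 7 fell in KO saline against WT saline, with a list median of −0.32 against −0.02 over all genes. In that comparison 6.04% of all genes tested rose and 5.26% fell. Ninj1, an adhesion protein of myeloid cells, rose by 1.41 ± 0.17 on the log2 scale. Cd44, the hyaluronan receptor, rose by 1.33 ± 0.20, and Cd34, a sialomucin of endothelium and stroma, fell by 1.28 ± 0.20. Adjusted p of these 3 was at most 0.000576 (edgeR).

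Among 22 integrin partners and activators tested, 3 rose and 1 fell in KO saline against WT saline (list median 0.42). Of all genes 6.04% rose and 5.26% fell there. Fermt3, the kindlin that activates integrins in blood cells, rose by 1.60 ± 0.20 (adjusted p = 0.000133), and Fermt2, the kindlin of other cells, fell by 1.65 ± 0.25 (adjusted p = 0.00051, edgeR). Skap2, an adaptor of integrin activation in myeloid cells, rose by 0.96 ± 0.15 (adjusted p = 0.000596). Itgb7, the partner of Itga4 in the gut-homing integrin, was higher by 2.01 ± 0.52 (adjusted p = 0.0207), a call lost without WT saline 2 or 3 or KO saline 2 and in a fit of the compared groups alone (adjusted p = 0.0682, edgeR).

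Of 12 enzymes that build selectin ligands, 2 rose and 2 fell in KO saline against WT saline. Over all genes the shares were 6.04% and 5.26%. Gcnt1, which makes the core-2 branch of PSGL-1 glycans, rose by 1.43 ± 0.33 (adjusted p = 0.0104, edgeR). Fut4, a fucosyltransferase, had 136, 20 and 273 counts in KO saline and 2, 0 and 0 in WT saline (adjusted p = 0.0114, edgeR). Chst2, a sulfotransferase, fell by 2.75 ± 0.55 (adjusted p = 0.00376). In limma on FPKM the calls of Chst2 (adjusted p = 0.0604 and 0.0631 with pseudocounts 1 and 0.1) and, with 1, of Fut4 (adjusted p = 0.0660) were lost.

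Of 22 NF-kB and cytokine genes that can induce adhesion molecules, 6 rose in KO saline against WT saline, as did 6.04% of all genes. The list median was 0.55, and 13 met an unadjusted p below 0.05 in edgeR, as did 23.5% of all genes. Tnf rose by 3.02 ± 0.49 (adjusted p = 0.000843), Il1b by 1.82 ± 0.31 (adjusted p = 0.00123), Cxcl2 by 2.29 ± 0.42 (adjusted p = 0.00205) and Nfkbia by 1.12 ± 0.19 (adjusted p = 0.00137, edgeR). The fitted value of Tnf was 3.67 without WT saline 1. Vcam1 and Icam1, which such cytokines induce in endothelium, had the near-0 differences given above, and Sele was not higher in KO saline. Endothelial markers summed to 326 to 514 CPM in KO saline and 632 to 1002 in WT saline, and ratios to Pecam1 are given above. The libraries do not show which cells the reads of Vcam1 and Icam1 came from, and whether these cytokines acted on the endothelial members was not tested.

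Of 15 sheddases and cytoskeletal adaptors, 2 fell in KO saline against WT saline, as did 5.26% of all genes. Rdx, which encodes radixin, fell by 0.77 ± 0.14 (adjusted p = 0.00196, edgeR), and the call was lost in limma on FPKM (adjusted p = 0.110 and 0.104).

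In the other comparisons few of these genes were called. With glycine in WT mice 2 of 18 transmigration and junction receptors rose and 1 fell. Of 22 NF-kB and cytokine genes 2 rose, where 1.39% of all genes were called in either direction. Ninj1 (1.07 ± 0.17, adjusted p = 0.00513) and Ccl2, a monocyte chemokine (1.28 ± 0.24, adjusted p = 0.0167, edgeR), rose. The call of Ccl2 was lost without WT saline 1 or 3. Tnf also rose (2.29 ± 0.48, adjusted p = 0.0269, edgeR), a call lost in 4 of 6 fits that left out 1 library. Podxl, from the same list as Ninj1, fell (−1.18 ± 0.27, adjusted p = 0.0448, edgeR), a call lost in all 6 such fits. In a fit of those groups alone none of these genes passed (adjusted p = 0.0580 for Ninj1, 0.0776 for Ccl2, 0.193 for Tnf and 0.108 for Podxl, edgeR). Cxcl12 rose with glycine in KO mice (1.31 ± 0.22, adjusted p = 0.00824), and Il1b was higher in KO glycine than in WT glycine (1.66 ± 0.31, adjusted p = 0.00933), a call lost without WT glycine 6. Ninj1, Fermt3 and Gcnt1 were lower in the interaction.

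The genes most alike to each member were those with the highest Pearson r of log2 CPM over the 12 libraries, given as a description; the points share libraries, scaling and group structure. For Selplg they were Nrros (r = 0.978), Cd14 (0.978) and Lgals3 (0.975). Psap and Pkm stood among the 3 most alike for both Itgb2 (0.972 and 0.968) and Itgam (0.975 and 0.965). For Itga4 the highest was Il18 (0.916). For Itgal it was Med13l (0.863), for Vcam1 Rufy1 (0.855) and for Icam1 Deaf1 (0.880), while Icam2 reached 0.904 with C1qtnf9 and Selp 0.918 with Pnpla8.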

How the data were processed

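RNA was sequenced from 12 libraries in 4 groups of 3. The tools named in the submitters' processing notes are RSEM, Bowtie2 2.2.8, StringTie 1.3.1 and HISAT2 2.1.0, whereas build and annotation were not stated in these sources. For each gene the authors deposited FPKM and an estimated count, taken to be the expected count of RSEM. Of the estimated counts, 10.4% were fractional, and rounding preceded each count test. A symbol was missing for 112 entries, which took no more than 0.0124% of any library.

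Genes were filtered with filterByExpr (13928 kept), scaled by TMM and tested with edgeR 4.0.16 (robust quasi-likelihood fit, 1 model of 4 groups, 5 contrasts, Benjamini-Hochberg over all genes tested, threshold 0.05) in R 4.3.3, after a check on simulated data. SE is the log2 fold change divided by the root of F. The spread of all 4 groups is shared. Alternatives were relative log expression factors, DESeq2 1.42.0, limma 3.58.1 on log2(FPKM + 1) and log2(FPKM + 0.1) of the deposited FPKM, no filter, only the compared groups, no mitochondrially encoded genes, the replicate number as a block, and each library left out.

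Members and gene lists were chosen with earlier results of these data known. All members are named; of each pathway list, up to 4 genes with the smallest adjusted p below 0.05 per comparison could be named, and examples are given; 1 further gene that met this rule is not reported here. GENCODE vM21 (GRCm38) gave only names and overlaps. The floor of 3 counts covers counting error only; 95% intervals of fold changes come from the fit.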

Additional observations from a re-analysis of the deposited data

Results flagged for a closer look

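Glycine's effect differed between the genotypes, by the interaction test of edgeR, for 1 of the 9 adhesion molecules tested, for 1 of 18 transmigration and junction receptors, 1 of 22 integrin partners and activators and 1 of 12 selectin ligand enzymes, where 1.12% of all genes were called. The interaction was −1.21 ± 0.27 (SE, log2) for Selplg (adjusted p = 0.0444), −1.32 ± 0.28 for Fermt3 (adjusted p = 0.0363), −1.25 ± 0.23 for Ninj1 (adjusted p = 0.0175) and −2.09 ± 0.46 for Gcnt1 (adjusted p = 0.0439). All 4 had a more negative fitted effect of glycine in KO than in WT mice. Leaving out 1 library at a time ended the call in 9 of 12 fits for Selplg, Fermt3 and Gcnt1 and in 5 of 12 for Ninj1, with adjusted p of at most 0.113, 0.101, 0.123 and 0.0589 in that order. On FPKM with limma, Selplg (adjusted p = 0.0807), Fermt3 (0.0661) and Gcnt1 (0.0649) missed the threshold. In the same test 7 of 10 macrophage and 2 of 5 pan-leukocyte markers were lower, and their part in these values was not tested.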

How the results depend on the processing

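Of 648 values of member fold changes under alternatives, 580 kept direction and side of the threshold, 12 newly passed it, 20 lost it and 36 changed sign, in 14 of 45 member results. In KO saline against WT saline 3 or 4 members were called under every alternative run: Itgb2, Itgam and Selplg each time. The replicate block called these 3, and Itga4 missed (adjusted p = 0.0968); replicate numbers did not pair the libraries (correlations −0.0339 to 0.0194), and the block gave −0.00831 for Vcam1 there.

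Member counts moved elsewhere. In WT glycine against WT saline DESeq2 called 1 and limma called 2 on log2(FPKM + 1) and 2 on log2(FPKM + 0.1). In KO glycine against KO saline the fit of only the compared groups called 1. In KO glycine against WT glycine DESeq2 called 1. For the interaction DESeq2 called 3 and limma 0 with either pseudocount, and leaving out 1 library gave 0 to 3. The cause was not tested.

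FPKM holds no TMM scaling. Its fits put the median log2 fold change of all genes at 0.31 and 0.44 in WT glycine against WT saline, 0.19 and 0.27 in KO glycine against KO saline and 0.15 and 0.25 in KO saline against WT saline (pseudocount 1 and 0.1), where edgeR gave 0, −0.00522 and −0.0248. Signs changed there for Icam1 (0.39 and 0.41), Pecam1 (0.39 and 0.399) and, with 0.1, Itgal (0.0462) in WT glycine against WT saline; for Icam2 (0.18 and 0.18), Icam1 (0.11 and 0.12) and Ptprc (0.15 and 0.155) in KO glycine against KO saline; and for Selp (0.0169 and 0.026) and Icam1 (0.21 and 0.23) in KO saline against WT saline.

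Leaving out 1 library at a time changed signs only of values that had missed the threshold in the same comparison. In WT glycine against WT saline the ranges were −0.00372 to 0.55 for Selp, −0.36 to 0.23 for Icam1 and −0.16 to 0.15 for Pecam1. In KO glycine against KO saline they were −0.31 to 0.13 for Icam2, −0.0945 to 0.37 for Itga4, −0.12 to 0.17 for Vcam1, −0.25 to 2.1 for Itgal, −0.38 to 0.0869 for Icam1 and −0.33 to 0.0316 for Ptprc. In KO saline against WT saline they were −0.46 to 0.12 for Selp, −0.16 to 0.10 for Vcam1, −1.74 to 0.67 for Itgal and −0.15 to 0.16 for Icam1. In KO glycine against WT glycine they were −0.40 to 0.18 for Icam1 and −0.29 to 0.046 for Pecam1, and in the interaction −0.36 to 0.22 for Icam1. The test of Sele was limited by the spread within WT saline (97, 31 and 0 counts).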
